A study of Mus musculus with 10 samples.

Results

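The genes described here are 9 mouse genes through which a myeloid cell shows antigen to T cells. They were chosen as a list of symbols and not by a cut on measured values, though earlier results of these data were known. The class II chains H2-Aa, H2-Ab1 and H2-Eb1, the peptide loading subunit H2-DMa, the class II invariant chain Cd74 and the class II transactivator Ciita make up the MHC class II side. Cd80, Cd86 and Cd40 make up the costimulation side. All 9 were found among the 46152 genes counted in RNA sequencing of brain microglia. H2-Ab1 and H2-Eb1 had 0 counts in all 10 libraries, 7 genes had at least 1 count, and 5 (Cd74, Ciita, Cd80, Cd86 and Cd40) passed the filter on low counts and were tested. The microglia came from C57BL/6J mice of both sexes, 8 to 12 weeks old. The vehicle group (5 libraries) received Tween 80 with Hydroxymethyl Propyl-cellulose by oral gavage for 8 days. The GW2580 group (5 libraries) received GW2580, an inhibitor of the kinase of the CSF1 receptor, at 80 mg/kg/d by the same route and for the same time. Each group held 2 male and 3 female mice, and cells were taken from perfused whole brains by Accutase digestion, a Percoll gradient and magnetic selection for CD11b, a protein that monocytes, neutrophils and some dendritic cells also carry. The comparison asked whether the drug changed the RNA levels of these genes in microglia.

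MHC class II molecules are pairs of an alpha and a beta chain that carry peptides from ingested proteins to the cell surface, where CD4+ T cells read them. The invariant chain, encoded by Cd74, guides the pair to the endosome and blocks its groove until proteases cut it down and the H2-DM dimer exchanges the last fragment for a peptide. Ciita does not bind DNA itself: it docks on factors held at the X and Y boxes of class II promoters, and interferon gamma is its classical inducer. A T cell also needs costimulation, which CD80 and CD86 give through CD28, while CD40 on the presenting cell receives CD40 ligand from the T cell. Resting microglia are known to carry little of this machinery at the surface.

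The libraries held between 12550418 and 26079343 fragments assigned to genes. Of the 12 microglial marker genes listed, 11 were detected and their summed level ran from 10170 to 45400 CPM (the fragment count relative to library size, here after scaling by TMM, a correction for library composition). GW2580 3 was the highest and vehicle 5 the lowest. The 12th marker, Aif1, had 0 counts in all libraries. Vehicle 2 and vehicle 5 had the highest summed levels of astrocyte, oligodendrocyte and neuron genes (21140 and 5354 CPM, against 414.5 to 2518 in the other 8 libraries). On the first principal component, which carried 47.05% of the variance, the other 4 vehicle libraries lay between 35.0 and 40.5, and GW2580 1, 3 and 4 between −46.4 and −37.8. Vehicle 5 lay beyond the latter at −77.9, GW2580 5 beyond the former at 45.8, and GW2580 2 between at 5.20. Because these were bulk samples, fewer cells of a type cannot be told apart from less RNA per cell.

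Under the thresholds of the study (more than 2-fold at p under 0.05 before adjustment, edgeR quasi-likelihood test), 0 of the 5 tested members were called. Among all 28419 genes tested, 10.7% were called, 4.01% as higher with GW2580 and 6.7% as lower. With scaling by library size alone, the share of called genes that were higher moved from 37.5% to 70.8%. No member had an unadjusted p under 0.05. Across all genes, 4186 had such a p, and 0 had an adjusted p (Benjamini-Hochberg) under 0.05 in edgeR or limma-voom and 177 in DESeq2. For 5 members against a background of 10.7%, a count of 0 does not set the members apart from other genes.

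The 4 class II members of chromosome 17 were close to unmeasured in these counts. H2-Aa, the alpha chain of the I-A molecule (GRCm38, chr17:34282744-34287823, minus strand), had 41 fragments in all. Its counts in vehicle 1 to 5 were 0, 2, 0, 9 and 8, and in GW2580 1 to 5 they were 5, 1, 11, 4 and 1. H2-DMa, the alpha subunit of the peptide exchange factor (chr17:34119693-34139101, plus strand), had 10 fragments, 7 of them in vehicle 2, 2 in GW2580 1 and 1 in GW2580 2, and 3.99% of its exon bases lie under exons of Brd2 on the opposite strand. H2-Ab1, the I-A beta chain (chr17:34263227-34269418, plus strand), and H2-Eb1, the I-E beta chain (chr17:34305867-34316674, plus strand), had none. For each library a count of 0 allows up to 3 fragments, which is 0.142 to 0.251 CPM, a limit that covers counting error only. No fold change is given for these 4 genes, since both groups lay near that limit.

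These zeros went with how the genes are annotated. Each of the 4 is annotated on 4 reference sequences, chromosome 17 and 3 alternate sequences of the same region, and the deposited gene length is the sum over all of them. Cd74, Ciita, Cd80, Cd86 and Cd40 are each annotated on 1 sequence. Of the 20751 protein-coding genes annotated on 1 sequence, 371 (1.79%) had 0 counts in all libraries, and their median total was 1505 fragments. Of the 1118 annotated on 2 or more, 289 (25.8%) had 0, and of the 198 annotated on 4 or more, 93 (47.0%) had 0, with a median total of 1 fragment. In the stretch of chromosome 17 that holds the class II genes, from base 34000000 to base 35400000, 49 of 85 protein-coding genes (57.6%) had 0 counts.

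Genes at 0 there included some that microglia are known to express, named here after their values were seen. Aif1, the gene of the Iba-1 protein by which microglia are stained, had 0 counts in all 10 libraries, as had the peptide transporter gene Tap2 and the class I heavy chain gene H2-D1, and each is annotated on 4 sequences. The 6 other class II genes of the loading list (H2-DMb1, H2-DMb2, H2-Oa, H2-Ob, H2-Eb2 and H2-Ea) were at 0 as well, again on 4 sequences each. In every library, fragments that matched more than 1 place in the reference were left out of the counts, and they made up 15.1% to 26.1% of the records. Whether class II fragments were among them was not tested. Counts near 0 here cannot be read as absence of class II RNA, and they allow no comparison of the class II chains between groups.

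**Figure D1:**
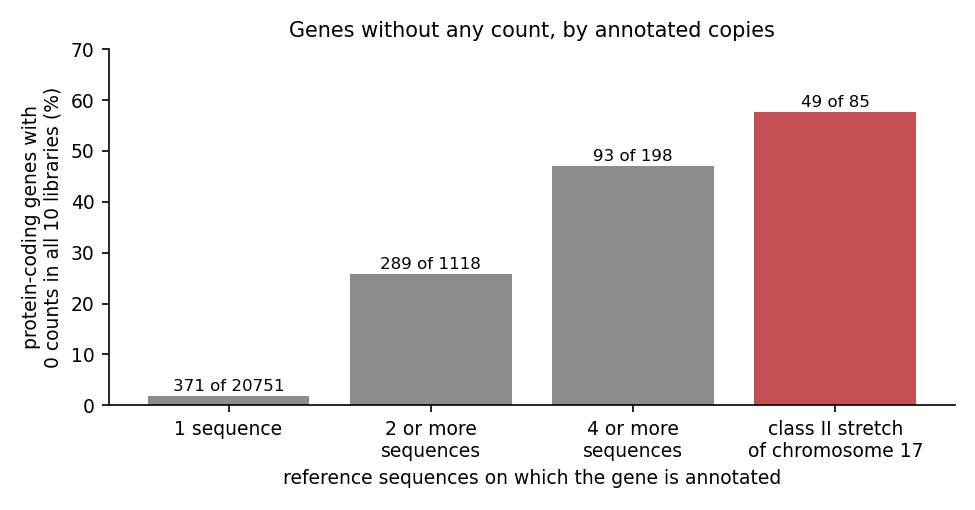
The bars give the percent of protein-coding genes with 0 counts in all 10 libraries, by the number of reference sequences on which a gene is annotated (the class of 2 or more holds the class of 4 or more) and for the class II stretch of chromosome 17. The share was 1.79% for genes on 1 sequence, 25.8% on 2 or more, 47.0% on 4 or more and 57.6% in the class II stretch.

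Class II promoters are known for the X and Y boxes at which the partners of Ciita bind. Matches are printed here to show how they differ among the members whose windows were used. RefSeq promoter windows (GRCm38.p6, from 250 bases before to 50 bases after a start) were used for H2-Aa, H2-Eb1, H2-DMa and Cd80. Matches are not given for the other members, Cd74 included. ATTGG, the core of the Y box, was searched on both strands, and so was AGCAAC, an X box core. The H2-Aa window held 1 match to ATTGG, beginning 48 bases before the start, and the H2-Eb1 window held 2, with the first 59 bases before the start, plus 1 AGCAAC 92 bases before it. Capitals mark the matches in the following stretches of 30 bases, written 5′ to 3′ on the strand of the gene.
H2-Aa Y box, chr17:34287854-34287883, minus strand: gagaattttctgATTGGttctggcgagttt
H2-Eb1 Y box, chr17:34305796-34305825, plus strand: cctttgatgctgATTGGctcccagcactgg
H2-Eb1 X box, chr17:34305763-34305792, plus strand: gaatctctaactAGCAACtgatgatgctgg
Of all 32851 promoter windows, 37.4% held ATTGG, 14.8% held AGCAAC and 5.84% held both, so a match to the shorter core is common. Of 2 windows for H2-DMa, 1 held an ATTGG, and the Cd80 window held neither motif. These matches describe letters and not binding.

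Cd74 (chr18:60803849-60812652, plus strand) was by far the most abundant measured member. Per kb of exon its mean level (± SD over 5 libraries, here and in what follows) was 1233 ± 313 CPM in vehicle and 840 ± 495 CPM with GW2580. Only 51 of the 28419 tested genes, Cd74 itself included, stood at or above its vehicle level per kb. Vehicle 1 to 5 had 1046, 1564, 2007, 2105 and 2003 CPM, and GW2580 1 to 5 had 624.4, 1350, 2325, 659.8 and 983.3 CPM. In these TMM-scaled values GW2580 1, 4 and 5 lay below all vehicle libraries and GW2580 3 lay above all of them. GW2580 2 lay within the vehicle range. That order depends on the scaling, whose factors ran from 0.691 in GW2580 3 to 1.61 in GW2580 4. Before scaling, GW2580 3 had 41850 Cd74 fragments of 26079343 assigned, and vehicle 4 had 36665 of 17913818. The means were 1745 ± 443.5 CPM and 1189 ± 699.7 CPM. The log2 fold change was −0.55 (SE 0.45, 95% interval −1.51 to 0.40, p = 0.235, adjusted p = 0.566, edgeR), and the two-sided exact permutation test over all splits into 5 and 5 gave p = 0.135. The interval runs from 0.351 to 1.32 times the vehicle level. Without GW2580 3 the log2 fold change was −0.95 with an unadjusted p of 0.0265 in edgeR, still under 2-fold. At least 12160 fragments stood behind each Cd74 value. GW2580 4, 1 and 5, the libraries of low Cd74, also had the largest shares of fragments outside exons (60.1%, 56.1% and 51.5%). That share was 38.4% to 49.1% in vehicle, 45.4% in GW2580 2 and 38.7% in GW2580 3. Its part in the Cd74 levels was not tested.

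Ciita (chr16:10480014-10531064, plus strand), the transactivator, was the least abundant tested member per kb of exon, at 1.42 ± 0.265 CPM in vehicle and 1.18 ± 0.576 CPM with GW2580. Vehicle 1 to 5 had 13.14, 15.75, 14.70, 16.08 and 9.718 CPM, and GW2580 1 to 5 had 5.854, 11.33, 9.168, 20.92 and 10.29 CPM. The groups overlapped: GW2580 1 and 3 lay below all vehicle libraries and GW2580 4 above all of them. The log2 fold change was −0.27 (SE 0.34, 95% interval −0.995 to 0.46, p = 0.442, adjusted p = 0.726, edgeR; exact permutation p = 0.294). GW2580 4, the highest library, also had the largest share of fragments outside exons (60.1%, against 38.4% to 56.1% in the others), and the part of this in its Ciita level was not tested. Ciita shares 6.18% of its exon bases with Dexi and 3.71% with LOC115488669, both on the opposite strand, and the counting did not use strand, so fragments of these genes cannot be told apart there. Cd74 and Ciita did not vary together. Over the 10 libraries, which share their scaling, the Pearson correlation of their log2 CPM was 0.127 and the Spearman correlation 0.067.

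**Figure D2:**
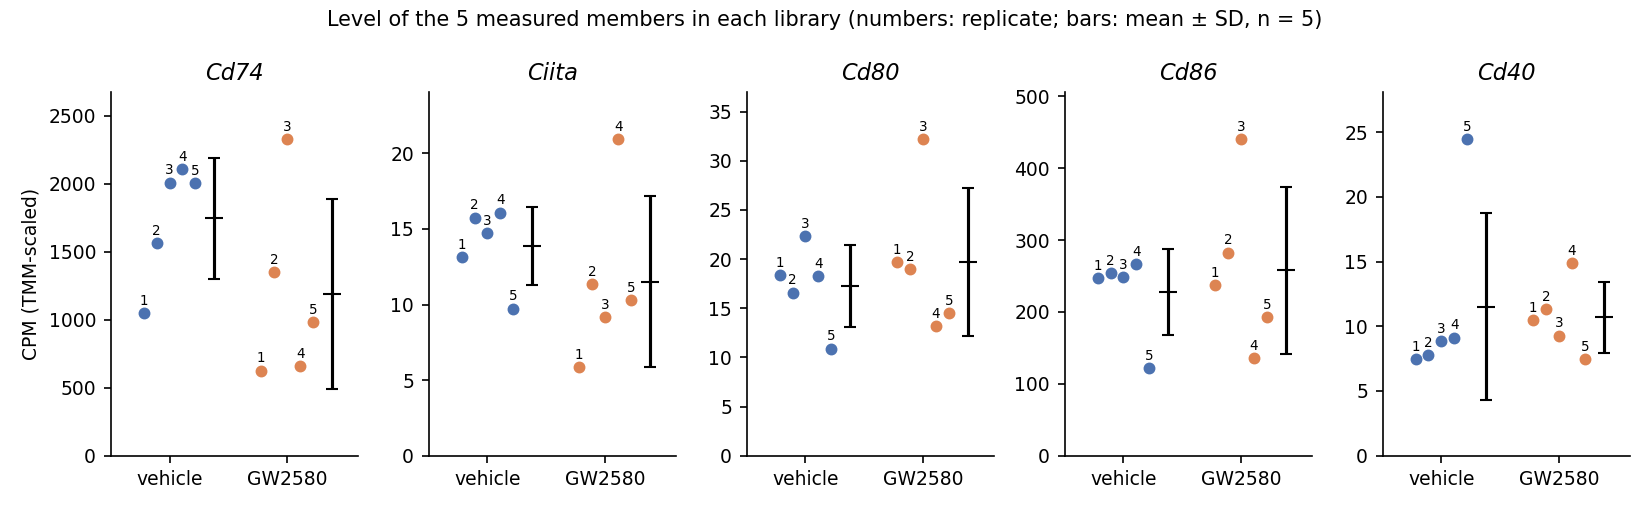
Each panel plots 1 tested member, with CPM (TMM-scaled) on a linear axis from 0, a point for each library numbered by replicate, and a bar for the mean ± SD of the 5 libraries of a group. Cd74 in GW2580 1, 4 and 5 sits below all vehicle points, vehicle 5 stands alone in Cd86 (121.5 CPM) and Cd40 (24.44 CPM), and GW2580 3 is the highest point for Cd74, Cd80 and Cd86.

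The factors that act with Ciita or lead to it did not pass the test. Of the 17 genes of this list (the RFX and NF-Y subunits, interferon gamma receptors, JAK kinases, IRF factors and coactivators), 16 were tested, 0 were called, 8 lay higher and 8 lower, and the median log2 fold change was 0.0028, against −0.03 over all tested genes. The most abundant were Ifngr1, a chain of the interferon gamma receptor (797.7 ± 169 CPM in vehicle, 1046 ± 550.2 with GW2580, log2 fold change 0.39, SE 0.41), and Irf8, a transcription factor of the myeloid lineage (637.9 ± 85.9 and 806.3 ± 398.9 CPM, 0.34, SE 0.38). Ifngr2, the other receptor chain, had nearly equal means of 228.9 ± 85.4 and 223.5 ± 101.5 CPM.

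Genes of class II loading and antigen processing were listed apart from the members. Of 15, 9 were tested, 0 were called higher and 1 lower, with a median log2 fold change of 0.25. The 6 others were the class II genes at 0. The called gene was Ifi30, a thiol reductase of the endosome that opens disulphide bonds of antigens. It was 49.0 ± 22.6 CPM in vehicle and 21.3 ± 11.2 CPM with GW2580, and fell by 1.20 on the log2 scale (SE 0.50, unadjusted p = 0.0309, adjusted p = 0.303, edgeR). The libraries overlapped, since vehicle 5 (12.53 CPM) was lower than 4 of the 5 GW2580 libraries. The call was lost in 5 of 10 fits that left out 1 library (vehicle 1, 3 or 4, or GW2580 1 or 4), with log2 fold changes of −1.16 to −0.95 and unadjusted p = 0.0534 to 0.0736 in edgeR. Ifi30 is annotated on 2 sequences, so its counts may be partial. Marchf1 went the other way, under 2-fold, from 66.5 ± 13.3 CPM in vehicle to 112.0 ± 51.35 CPM with GW2580. Its log2 fold change was 0.75 (SE 0.34, unadjusted p = 0.0458, adjusted p = 0.333, edgeR), and 3 GW2580 libraries lay above all vehicle libraries. Ctsd, an endosomal aspartic protease, was the most abundant gene of the list, at 11420 ± 1171 CPM in vehicle and 15530 ± 9039 with GW2580. Ctss, the protease that trims the invariant chain in myeloid cells, was 7185 ± 2964 and 5564 ± 2660 CPM (log2 fold change −0.37, SE 0.54). Ctsb was 2858 ± 115 and 3465 ± 1953 CPM. None of these 3 proteases passed the test.

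Cd86 (chr16:36568956-36666158, minus strand), a ligand of CD28 and CTLA-4, was the second most abundant tested member, at 66.0 ± 17.4 CPM per kb of exon in vehicle and 74.7 ± 33.5 CPM with GW2580. Vehicle 1 to 5 had 247.4, 254.3, 248.3, 266.9 and 121.5 CPM. GW2580 1 to 5 had 237.5, 282.4, 440.1, 135.4 and 193.1 CPM. Vehicle libraries other than vehicle 5 were close to each other, and the GW2580 libraries spread on both sides of them. The log2 fold change was 0.18 (SE 0.38, 95% interval −0.63 to 0.99, p = 0.643, adjusted p = 0.846, edgeR; exact permutation p = 0.794). Without GW2580 3 it was −0.10, and without vehicle 5 it was 0.02.

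Cd80 (chr16:38457430-38495958, plus strand), the other CD28 and CTLA-4 ligand, was less abundant, at 4.55 ± 1.09 CPM per kb of exon in vehicle and 5.19 ± 1.98 CPM with GW2580. Vehicle 1 to 5 had 18.33, 16.59, 22.30, 18.26 and 10.90 CPM. GW2580 1 to 5 had 19.67, 18.98, 32.17, 13.16 and 14.49 CPM. As with Cd86, vehicle 5 was the lowest library and GW2580 3 the highest. The log2 fold change was 0.19 (SE 0.32, 95% interval −0.49 to 0.87, p = 0.559, adjusted p = 0.798, edgeR; exact permutation p = 0.619), and without GW2580 3 it was −0.06.

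The CD28 ligands moved together from library to library. The Pearson correlation of their log2 CPM over the 10 libraries was 0.937 (0.938 within groups, Spearman 0.709), and it was 0.801 after the most extreme pair on the Cd80 axis, vehicle 5 and GW2580 3, was left out. Per kb of exon, Cd86 exceeded Cd80 by a ratio of 14.5 ± 2.14 in vehicle (range 12.3 to 16.9) and 14.1 ± 1.92 with GW2580 (range 11.3 to 16.4). The microglial list moved the same way: its sum was lowest in vehicle 5 (10170 CPM) and highest in GW2580 3 (45400 CPM), where Cd80 and Cd86 were lowest and highest. The part of microglial content in the levels of Cd80 and Cd86 was not tested. Cd74 did not follow in vehicle 5, where it kept 2003 CPM. The ratio of Cd74 to Cd86 per kb was 40.2 there, 10.3 to 19.7 in the other vehicle libraries and 6.41 to 12.9 with GW2580. The ratios were chosen after the values were seen, and no test was run on them.

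**Figure D3:**
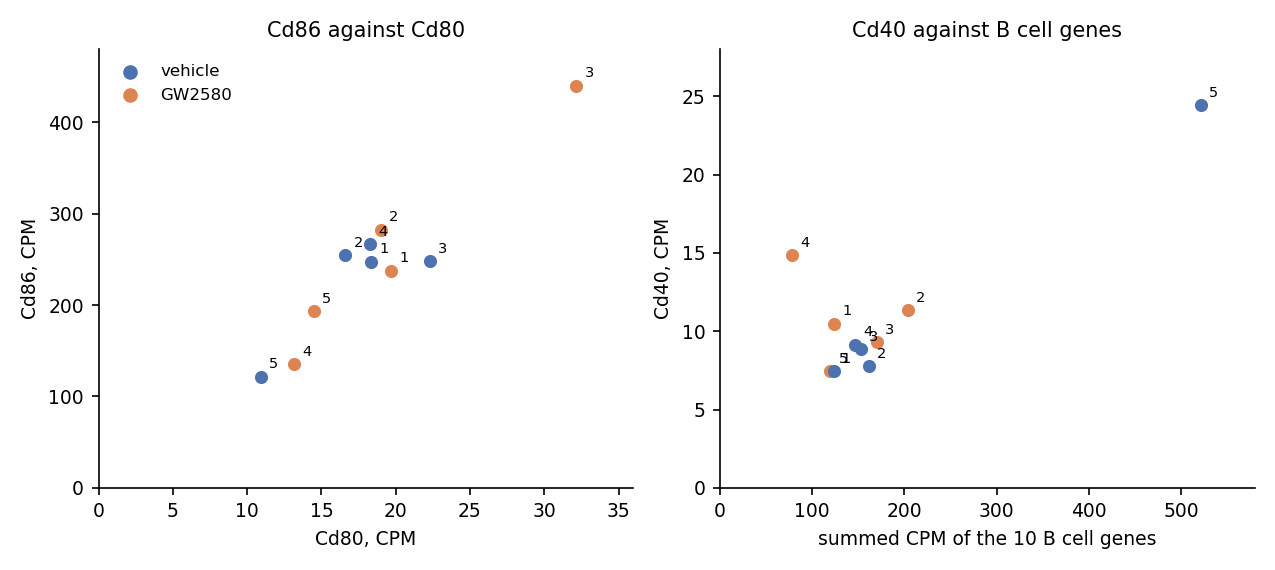
The left panel plots Cd86 against Cd80 and the right panel Cd40 against the summed level of the 10 B cell genes, all in CPM on linear axes, with a point for each of the 10 libraries numbered by replicate. Cd86 and Cd80 lie along a common line with vehicle 5 at its low end and GW2580 3 at its high end, and on the right vehicle 5 stands apart from the other 9 libraries on both axes.

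Cd40 (chr2:165055614-165071654, plus strand), the receptor of CD40 ligand, had 6.13 ± 3.86 CPM per kb of exon in vehicle and 5.68 ± 1.47 CPM with GW2580. In the order of levels per kb it stood next to Cd80. With GW2580 their means differed by less than the SD of either gene, and in vehicle by more than the SD of Cd80 but less than that of Cd40. Vehicle 1 to 5 had 7.434, 7.77, 8.855, 9.13 and 24.44 CPM. GW2580 1 to 5 had 10.48, 11.33, 9.279, 14.86 and 7.448 CPM. Vehicle 5 was the highest of all 10 libraries, and 4 of the 5 GW2580 libraries were above the other 4 vehicle libraries. The log2 fold change was −0.11 (SE 0.37, 95% interval −0.91 to 0.69, p = 0.770, adjusted p = 0.908, edgeR; exact permutation p = 0.944). Without vehicle 5 it was 0.37 with an unadjusted p of 0.184 in edgeR. With vehicle 5 kept, it was 0.011 in limma-voom and 0.25 with library size alone. The difference of mean log2 CPM, which the permutation test used, was 0.018 over all 10 libraries. The direction for Cd40 thus depended on that library and on the method.

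Vehicle 5 was also the library with the highest sum of B cell genes. All 10 B cell genes were detected, and their sum was 521.4 CPM in vehicle 5, 123.1 to 161.1 CPM in the other vehicle libraries and 78.4 to 203.9 CPM with GW2580. Fcmr, the gene of an IgM Fc receptor, had 100.2 CPM in vehicle 5 and 0.6668 to 6.062 CPM in the other 9 libraries. Cd40lg, the gene of CD40 ligand, had 12.98 CPM in vehicle 5 and at most 0.7518 CPM elsewhere. Not every gene of the B cell and T cell partner lists went this way. Cd79b of the B cell list (61.06 CPM) and Lag3 of the T cell partner list (39.43 CPM) were lower in vehicle 5 than in any other vehicle library. The sum of the microglial list was also lowest in vehicle 5 (10170 CPM), and its part in these Cd79b and Lag3 levels was not tested. B cells and dendritic cells also express CD40 and class II genes, and the 12 dendritic cell genes summed to 182.5 CPM in vehicle 5 and 129.8 to 228.7 CPM in the others, with Clec10a at 0 in all libraries (it is annotated on 2 sequences). The part of lymphocyte RNA in the Cd40 and Cd74 levels of vehicle 5 was not tested.

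Calls among the T cell partners of the costimulatory ligands were lost without that library. Of 11 genes (CD28, CTLA-4, ICOS, CD40 ligand, CD4, LAG-3 and T cell receptor components), 8 were tested and 2 were called lower with GW2580, Cd3e and Trac, by −2.48 and −3.62 on the log2 scale (unadjusted p = 0.0193 and 0.00430, adjusted p = 0.280 for both, edgeR). Without vehicle 5, 0 were called and the 2 values were −0.15 and −1.27. In the B cell list, Fcmr was called lower (−3.07), and without vehicle 5 it was 0.80 and 0 of the 10 genes were called. The Fcmr call was also lost without GW2580 3, 4 or 5, in the same direction, and the Cd3e call without GW2580 3. Lag3, the most abundant T cell partner gene, was 85.7 ± 26.3 CPM in vehicle and 67.3 ± 34.4 CPM with GW2580.

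Downstream of CD40, the TRAF adaptors and NF-kB subunits were all measured. Of 14 genes, 14 were tested, 0 were called, 13 lay higher with GW2580 and the median log2 fold change was 0.46, against −0.03 over all tested genes. The microglial list lay the same way, with 10 of 11 tested genes higher and a median of 0.54 (0.23 without GW2580 3), and its part in the CD40 list was not tested. Without vehicle 5 the median of the CD40 list was 0.57 and 2 were called higher, Tnfaip3 (1.61) and Rela (1.14), and without GW2580 3 it was 0.13 with 0 called. Rel, an NF-kB subunit, was 54.2 ± 8.17 CPM in vehicle and 87.7 ± 22.3 CPM with GW2580 (log2 fold change 0.69, SE 0.29, unadjusted p = 0.0314, adjusted p = 0.304, edgeR), which was under 2-fold. The 3 most abundant genes of the list were Rela, another subunit (174.6 ± 123.5 and 263.7 ± 172.5 CPM), Nfkb1 (114.0 ± 14.3 and 161.4 ± 83.8 CPM) and Tnfaip3, an inhibitor of NF-kB signalling (86.4 ± 80.5 and 156.2 ± 97.9 CPM). None of those 3 passed the test.

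Among 18 other costimulatory and coinhibitory ligands, 16 were tested, 1 was called higher and 0 lower, and the median log2 fold change was 0.24. The called gene was Sirpa, the inhibitory receptor that binds CD47. It rose from 809.8 ± 280.0 CPM to 1847 ± 1215 CPM (log2 fold change 1.19, SE 0.49, unadjusted p = 0.0303, adjusted p = 0.302, edgeR). GW2580 1, 3 and 4 were above all vehicle libraries and GW2580 5 was below 4 of them. The call was lost in 6 of 10 fits that left out 1 library (vehicle 1, 2, 3 or 4, or GW2580 1 or 3), with log2 fold changes of 0.77 to 1.19. Vsir, the gene of the coinhibitory protein VISTA, was 1267 ± 137 and 2017 ± 1152 CPM (0.67, SE 0.42). Lgals9, a galectin, was 429.7 ± 131.3 and 375.3 ± 185.1 CPM and did not pass the test either.

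**Figure D4:**
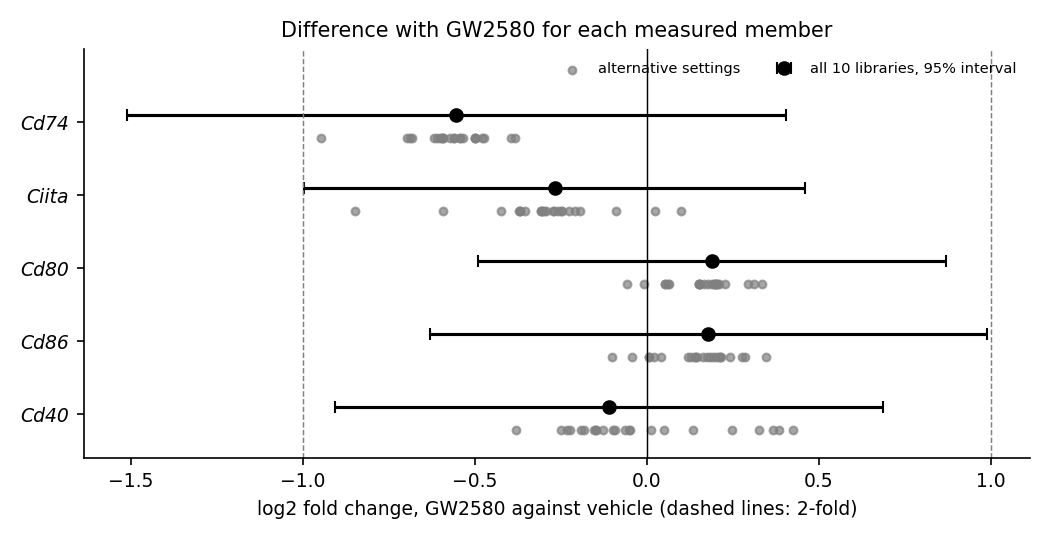
The black points give the log2 fold change of each tested member with GW2580 against vehicle over all 10 libraries, with 95% intervals, and the grey points the values under 23 alternative settings. All 5 intervals cross 0, the Cd74 values run from −0.95 to −0.38 and stay below 0, and the Cd40 values lie on both sides of 0.

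Differences between the sexes were tested in a model with sex, treatment and their interaction. The male effect minus the female effect was 0.95 for Cd40 (SE 0.76), −0.75 for Ciita (SE 0.72) and between −0.22 and 0.22 for Cd74, Cd80 and Cd86, with an adjusted p of 1.00 in edgeR for every tested member. With 2 male mice a group, these standard errors are large.

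The genes whose pattern over the 10 libraries was most like that of Cd74 are given as a description. The class II chains and the other class II genes near 0 could not enter this comparison. Among genes with a mean of at least 5 CPM, the 10 with the highest Pearson correlation of log2 CPM to Cd74 were Snrpa (0.968), Slc35b1 (0.959), Zkscan14 (0.948), Eef2kmt (0.945), Usp2 (0.944), Gm51820 (0.943), Tex264 (0.939), Slx1b (0.937), Tspyl2 (0.935) and Ppcs (0.929). For Cd86, the list held Otulinl (0.991), Lair1 (0.987), an inhibitory receptor of leukocytes, and the endosomal protease Lgmn (0.981). For Cd80 it held Olfml3 (0.964), a microglial marker, and Ifngr1 (0.954), and for Cd40 it held Ncapd2 (0.982) and Skap1 (0.959), an adaptor of T cells. The genes named for Cd80, Cd86 and Cd40 were picked after their values were seen. The libraries share composition and scaling, so these values describe these 10 libraries.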

How the data were processed

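RNA from CD11b-selected brain microglia was converted to cDNA with SMART-Seq v4 and sequenced as paired 150 nt reads. The authors aligned reads with STAR to GRCm38.p6 and deposited raw counts of fragments per RefSeq gene from featureCounts 1.6.3 (exons, without strand, fragments with several matches not counted), per the file headers. The deposited gene length in bases, summed over all annotated copies, was used for levels per kb. Symbols came from the RefSeq gene table of that build. Genes over 1 CPM in at least 3 libraries (28419 of 46152) were kept, scaled by TMM and tested with edgeR 4.0.16 (glmQLFit, treatment the only term). Calls needed more than 2-fold and p under 0.05 before adjustment, the thresholds of the study. Adjusted p-values are Benjamini-Hochberg over all tested genes. Alternatives used DESeq2 1.42.0 and limma 3.58.1 (R 4.3.3). On data simulated for this comparison (27265 genes after the filter), 58.1% of genes changed 2-fold, 98.4% of those changed by 2 and 100% of those changed by 3 on the log2 scale reached p under 0.05, and 4.61% of unchanged genes did. The 2-fold threshold was not applied there. Each gene was drawn independently, without the differences that many genes share within a real library, so these shares need not hold for the real libraries.

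All 9 members were named, and from every other list the 3 genes of highest mean CPM, the called genes and, for likeness to Cd74, 10 genes. A likeness to the mean of Cd74 and 3 class II chains had been planned, but of these only Cd74 passed the filter. Some listed genes are not reported here. The cell type lists are described under the other observations. The members and lists were chosen with earlier results of these data known. Each library is labelled as a separate sample. The labels do not say whether same-numbered libraries were paired, so numbers were not taken as pairs. Their deviations correlated above 0.1 in 1 of 5 pairs, with values from −0.566 to 0.389, which cannot settle the pairing.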

Additional observations from a re-analysis of the deposited data

Results flagged for a closer look

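A single library far from the rest of its group was looked for in the 10 groups of 5 libraries formed by the 5 tested members, by Dixon's test at the 95% level, which chance alone passes in about 1 in 20 groups. It found 2 values, both in vehicle 5. Cd40 was 24.44 CPM there, and the next highest vehicle library had 9.13 CPM. Cd86 was 121.5 CPM there, and the next lowest vehicle library had 247.4 CPM. In the same library the B cell genes summed to 521.4 CPM, the endothelial genes to 154.3 CPM (60.3 to 104.6 CPM in the other 9) and the microglial genes to 10170 CPM, and the part of these in either value was not tested.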

How the results depend on the processing

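No member was called under any of 25 alternatives (tests, scalings, filters, covariates, thresholds and subsets of libraries). Cd74 kept its direction in all 23 fits (−0.95 to −0.38 on the log2 scale) and had an unadjusted p under 0.05 in 1 of them, without GW2580 3. Values on the other side of 0 were as follows. Cd40 was 0.011 in limma-voom, 0.25 with library size alone, 0.13 with the glial lists as a covariate, 0.32 without vehicle 2 and vehicle 5, 0.38 without vehicle 5 and GW2580 5, and 0.43 in male mice, and it ranged from −0.25 to 0.37 when each library was left out. Ciita was 0.10 with library size alone and 0.024 in female mice. Cd80 was −0.0070 without vehicle 2 and vehicle 5 and ranged from −0.058 to 0.31 when each library was left out. Cd86 was −0.043 in male mice and ranged from −0.10 to 0.35. With the replicate block, a paired fit, Cd40 was 0.051 and the other 4 members kept their direction (−0.69 for Cd74, −0.37 for Ciita, 0.15 for Cd80, 0.13 for Cd86). The deviations of same-numbered libraries correlated from −0.566 to 0.389. Such correlations cannot show whether mice were paired, and the labels do not say, so the numbers were not taken as pairs. Library size alone moved the median of all genes to 0.23. Without vehicle 5 and GW2580 5, 4844 genes had an adjusted p under 0.05 in edgeR, against 0 with all libraries. A prior count of 0.5 moved no difference of mean log2 CPM across 0. The cause of these shifts was not tested. The counts of called genes in the other lists were put through the same alternatives, a choice made after seeing the data. The 5 tested members had at least 103 fragments in each library, and the effect of depth or of the number of libraries on precision was not tested.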

Other observations

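Other cell types that carry CD11b or neighbour microglia were followed through lists of their genes. Of 12 monocyte and neutrophil genes, 12 were tested, 0 were called higher and 1 lower, and their sum ran from 566.3 to 27940 CPM in vehicle and from 706.2 to 12270 CPM with GW2580. Their most abundant genes were the granule genes Ngp (2761 ± 3140 CPM in vehicle, 2016 ± 2535 CPM with GW2580) and the calprotectin genes S100a9 (2166 ± 3304 and 876.2 ± 969.6 CPM) and S100a8 (1170 ± 1757 and 542.9 ± 604.9 CPM). The called gene was Plac8 (−1.60, unadjusted p = 0.0225 in edgeR), which lost the call without vehicle 1 or GW2580 1, 3 or 4.

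Of 10 border macrophage genes, 9 were tested and 1 was called higher, the mannose receptor gene Mrc1 (14.9 ± 4.47 to 31.8 ± 20.3 CPM, 1.10 on the log2 scale, unadjusted p = 0.0216 in edgeR), which lost the call without vehicle 5 or GW2580 3. Their sum was highest in GW2580 3 (752.1 CPM), the library with the highest TMM-scaled levels of Cd74, Cd80 and Cd86, and 187.9 to 390.6 CPM in the others. Of 12 dendritic cell genes, 11 were tested and 1 was called higher, the transcription factor gene Zbtb46 (7.03 ± 2.64 to 14.1 ± 2.86 CPM, 1.01, unadjusted p = 0.00784 in edgeR), which passed 2-fold in 4 of 10 fits that left out 1 library. Of 12 microglial genes, 11 were tested and 1 was called higher, the fractalkine receptor gene Cx3cr1 (2543 ± 405 to 5594 ± 3195 CPM, 1.14, unadjusted p = 0.0278 in edgeR). It lost the call without vehicle 1, 2 or 5 or GW2580 3.

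The astrocyte, oligodendrocyte and neuron lists, with 2 of 8, 4 of 7 and 2 of 8 tested genes called lower, were highest in vehicle 2 and vehicle 5. Without those 2 libraries the direction turned: 2, 3 and 2 genes of these lists were called higher and 0 lower, and the medians, below 0 with all libraries, were 0.88, 0.64 and 0.30 on the log2 scale. Of 7 endothelial genes tested, 0 were called in edgeR and 0 had an unadjusted p under 0.05.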
